A study of Mus musculus with 12 samples.

Results

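The histone genes described here were all gene names beginning with Hist and a digit, H1f, H2af or H3f whose level was over 1 FPKM (fragments per kilobase, a level scaled to transcript length and library size) in at least 1 of the 12 libraries. Of 24439 gene names listed, 85 matched and 69 met this threshold: 5 H1, 16 H2A, 17 H2B, 10 H3 and 12 H4 genes with Hist symbols, and 9 replacement and variant genes of the H1f, H2af and H3f groups. These 69 genes were chosen by their FPKM level, so that they were expressed is not a result, and the other 16 names are not described further. Of the 69, 56 were over the threshold in every library, 64 in some library of every group, and 2 (*Hist1h2ao* and *Hist1h2ap*) in libraries of 1 group only. Just inside the threshold, *Hist1h2al* and *Hist2h2be* reached at most 2.37 and 2.66 FPKM before rescaling as below, and just outside it *Hist1h1t* and *Hist2h2aa2* reached 0.927 and 0.71 FPKM.

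The RNA came from T-blast cells (TB), which are recently activated, dividing CD4 T cells. Spleen CD4 T cells of C57BL/6 C42 mice, which carry a human IL3/CSF2 transgene in all groups, were activated for 40 h with concanavalin A at 2 ug/ml and then kept in culture with IL-2 at 50 U/ml, about 2 days in all. TB IL-2 cells stayed in IL-2, and TB IL-2nil cells had IL-2 removed for the last 16 h. TB+ IL-2 and TB+ IL-2nil cells were the same 2 cultures after 2 h of PMA/I (phorbol myristate acetate with the calcium ionophore A23187), which imitates T cell receptor signalling. There were 3 libraries per group, and the labels do not say that these came from separate animals, so P-values measure only the spread between these samples. CD4 T cells were bead-purified and cultured as a bulk, so fewer cells making histone RNA and less histone RNA per cell cannot be told apart.

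A pair of libraries went against their labels: the library labelled TB IL-2nil replicate 3 and that labelled TB+ IL-2 replicate 3 were each placed in the other's group. *Il2*, a gene induced by PMA/I, was at 0 to 1.18 FPKM in all libraries placed as TB and at 1095 to 2374 FPKM in all placed as TB+. The study's own expression table places them so. Results are given for this placement, for the libraries as labelled, and without both libraries. Relative sequencing depth ran from 0.409 to 1.25 of the median library. All 5 CD4 T cell markers were expressed, with summed levels of 1134 to 1200 TPM in TB IL-2 and 1848 to 2044 TPM in TB IL-2nil. All 4 B cell markers were detected at low level (summed 5.94 to 10.4 TPM in TB IL-2 and 23.2 to 29.6 TPM in TB IL-2nil, then 2.36 to 3.31 TPM in TB+ IL-2 and 5.49 to 12.7 TPM in TB+ IL-2nil), and their part in the histone results was not tested. None of the 3 NK cell markers reached 1 TPM in any library.

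Histones package DNA: an octamer of H2A, H2B, H3 and H4 is wrapped by DNA to form the nucleosome, and the linker histone H1 binds where DNA enters and leaves it. Most core and linker histone is made in S phase from clustered genes without introns, whose mRNAs are not polyadenylated but end in a conserved stem-loop bound by SLBP. Replacement variants are made through the cell cycle from polyadenylated mRNAs and are put into chromatin without DNA replication or at particular places. Ribosomal RNA was removed before the libraries were made, with no poly(A) selection, and both kinds of mRNA could thus be measured.

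The stem-loop is shown first because it separates the members by kind of mRNA. A run of 16 bases with a stem of 6 base pairs and a loop of 4 bases were sought in the 150 bases after the stop codon in the mm9 genome with the GENCODE M1 gene models. They were found in 56 of 66 members with an annotated stop codon (84.8%), and in 102 of 21930 protein-coding gene names (0.465%). All 5 H1, 10 H3 and 12 H4 genes had one, as did 14 of 16 H2A and 14 of 16 H2B genes, and 1 of 7 variant genes, *H2afx*. The sequences below are written 5′ to 3′ on the strand of the gene with the 16 bases in capitals and 5 bases on each side. They belong to a leading gene of each Hist class, to *H2afx* and to *Hist3h2ba*, a member whose level moved little on IL-2 removal. For H2B the gene with the highest mean level, *Hist2h2bb*, had no match after the stop codon, and the next, *Hist1h2bb*, is shown.
Hist1h4d (H4, mm9 chr13:23673819-23673834, plus strand): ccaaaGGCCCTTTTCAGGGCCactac
Hist1h3c (H3, chr13:23836916-23836931, minus strand): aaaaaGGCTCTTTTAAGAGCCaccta
Hist1h2ak (H2A, chr13:21845251-21845266, minus strand): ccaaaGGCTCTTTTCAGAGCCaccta
Hist1h2bb (H2B, chr13:23839072-23839087, plus strand): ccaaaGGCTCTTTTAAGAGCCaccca
Hist1h1c (H1, chr13:23831381-23831396, plus strand): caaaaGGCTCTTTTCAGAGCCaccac
H2afx (variant, chr9:44143323-44143338, plus strand): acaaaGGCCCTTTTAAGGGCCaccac
Hist3h2ba (H2B, chr11:58762851-58762866, plus strand): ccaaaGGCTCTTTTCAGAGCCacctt

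Of the genes without these letters after the stop codon, *Hist2h2be*, *Hist1h2an* and *Hist1h2al* had none within the gene and 300 bases either side. The same held for *H2afz*, *H2afj*, *H2afy*, *H3f3a* and *H3f3b*. *Hist2h2bb* and *H2afv* lacked them after the stop codon and had 1 match elsewhere in that span. A match is a description of the letters and not a test of how an mRNA was processed. Chromosome 13 held 51 members, 49 of them between positions 21807632 and 23856283, chromosome 3 held 7 and chromosome 11 held 5. Many members are near-identical copies: of 59 Hist members with a coding sequence, 41 shared at least 95% and 4 shared all of their coding bases with another of the same length. How the counting divided reads between such copies could move single genes, so class sums are given beside single genes.

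Promoters are shown for 3 genes. *Hist1h2bb* had the highest mean level of the members whose promoter held all 3 motifs below, so it was chosen for its motifs. *Hist1h4d* had the highest mean level of the H4 genes, and *Hist2h2ac* belongs to a pair described further on. They do not stand for the other promoters of their classes. RefSeq promoters (250 bases before to 50 bases after the start, GRCm38.p6) matched 59 of 69 members, and the 3 below match mm9 exactly at the positions given. The 3 motifs were sought on both strands of all 27025 promoters of the same length and are in capitals below, and none contains another. The TATA box, searched as TATAAA, stood in 32 of 59 member promoters (54.2%), where the share of all promoters with it was 14.2%. Another motif, bound by the factor NF-Y, was searched as CCAAT. It stood in 49 of 59 member promoters (83.1%) and in 37.9% of all promoters. The octamer bound by POU factors, searched as ATGCAAAT, stood in 12 of 59 (20.3%) and in 1.8%. All matched H1, H2A, H2B and H3 promoters held the NF-Y motif, against 3 of 11 H4 promoters, that of *Hist1h4d* among them. The octamer was in 6 of 14 H2A and 5 of 14 H2B promoters and in no H1, H3 or H4 promoter. Some H2A and H2B genes lie side by side and are transcribed away from each other, so their promoters overlap, as for *Hist1h2ae* and *Hist1h2bg*. A motif in the overlap is counted for both genes, so these counts are not of separate sequences.
Hist1h2bb (mm9 chr13:23838353-23838652, plus strand): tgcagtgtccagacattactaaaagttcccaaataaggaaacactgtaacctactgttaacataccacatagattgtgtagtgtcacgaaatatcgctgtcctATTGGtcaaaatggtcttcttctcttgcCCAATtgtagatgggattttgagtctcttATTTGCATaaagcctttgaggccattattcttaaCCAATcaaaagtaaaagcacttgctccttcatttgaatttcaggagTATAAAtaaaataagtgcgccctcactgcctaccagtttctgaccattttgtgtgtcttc
Hist1h4d (mm9 chr13:23673187-23673486, plus strand): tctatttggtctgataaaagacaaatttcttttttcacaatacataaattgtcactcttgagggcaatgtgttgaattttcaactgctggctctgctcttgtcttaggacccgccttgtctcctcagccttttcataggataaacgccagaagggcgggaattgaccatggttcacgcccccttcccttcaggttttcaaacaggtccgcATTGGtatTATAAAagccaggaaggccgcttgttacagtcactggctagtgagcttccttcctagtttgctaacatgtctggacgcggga
Hist2h2ac (mm9 chr3:96024754-96025053, minus strand): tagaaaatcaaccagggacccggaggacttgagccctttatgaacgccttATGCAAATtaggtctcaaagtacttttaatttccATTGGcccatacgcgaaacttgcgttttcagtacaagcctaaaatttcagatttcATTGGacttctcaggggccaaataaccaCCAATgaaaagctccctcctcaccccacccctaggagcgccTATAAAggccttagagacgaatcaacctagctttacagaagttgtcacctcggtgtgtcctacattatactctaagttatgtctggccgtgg

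The first comparison asked what IL-2 did to histone RNA in blast cells not given PMA/I. Histone RNA was several-fold higher with IL-2 in all 5 replication-dependent classes. Values are TPM, a per-length level with the same sum in each library, rescaled to a common upper quartile, and a gene was called when its level differed over 3-fold with an adjusted P below 0.05 (limma with Benjamini-Hochberg correction over 12442 genes). Summed over the 60 Hist members, the level was 51915, 90517 and 62025 TPM in TB IL-2 replicates 1 to 3 and 6623, 17585 and 17933 TPM in TB IL-2nil. All TB IL-2 libraries lay above all TB IL-2nil libraries, and the mean of the log2 sums differed by 2.37, a ratio of geometric means of 5.19-fold (the arithmetic means, 68152 and 14047 TPM, differed 4.85-fold). As labelled the log2 difference was 1.96, and without both libraries of disputed placement 2.62. By class, the ratio of geometric means was 3.49-fold for H1, 5.89-fold for H2A, 6.67-fold for H2B, 5.83-fold for H3 and 5.13-fold for H4, in each case without overlap of the libraries. By the same ratio the 9 variant genes summed were 1.95-fold higher, also without overlap. The Hist members made up 6.96%, 7.08% and 7.01% of all summed values in TB IL-2 and 0.925%, 1.71% and 1.86% in TB IL-2nil. Genes of DNA synthesis moved with them: 10 of 11 S phase genes were called higher with IL-2, beside 4.69% of all genes tested. The S phase genes had summed levels of 1628 to 2509 TPM in TB IL-2 and 348 to 408 TPM in TB IL-2nil. Their part in the histone difference, like that of the number of cells in S phase, was not tested.

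**Figure D1:**
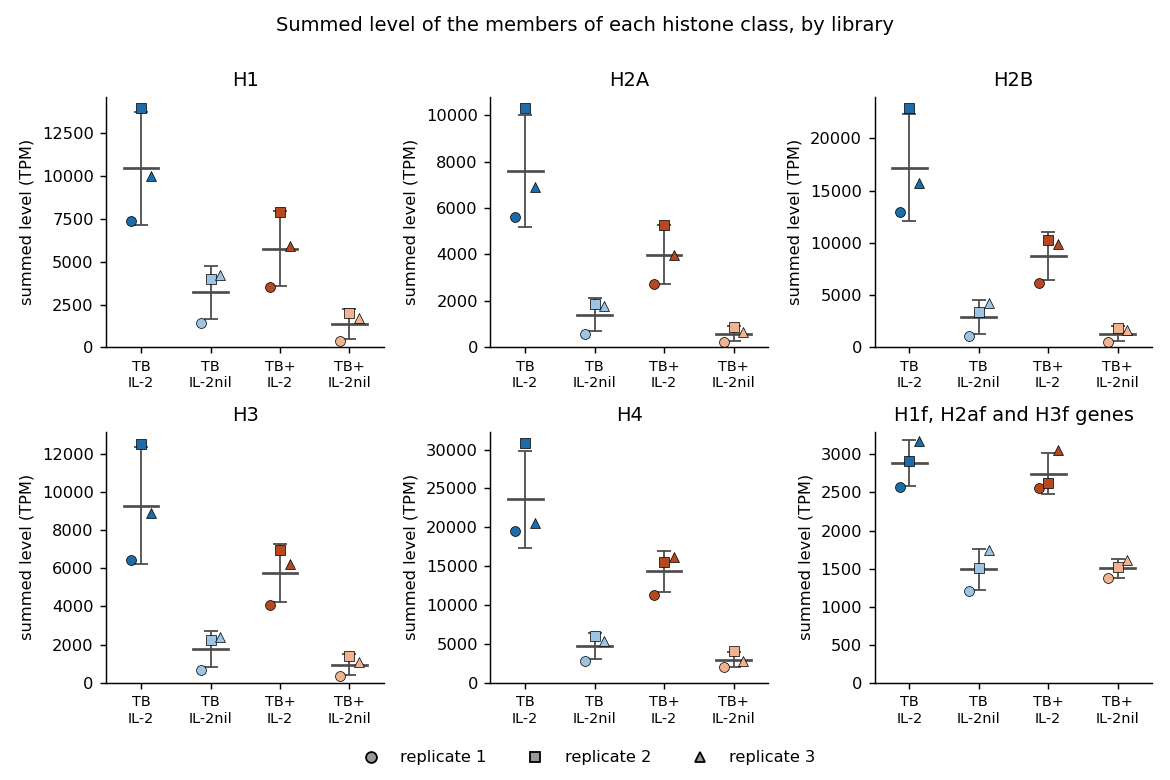
Summed level in TPM (linear axes from 0) of the members of each histone class in each library, by group. Points are libraries with replicates 1, 2 and 3 as circles, squares and triangles, bars the mean and whiskers 1 SD (n = 3). In all 6 panels the TB IL-2 libraries lie above the TB IL-2nil libraries, and for the Hist members together the arithmetic means are 68152 and 14047 TPM.

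Gene by gene, 50 of 69 members were called higher in TB IL-2 than in TB IL-2nil and none lower, beside 4.69% called higher and 2.73% called lower of all genes tested. With adjusted P alone, 53 were higher and 1 lower, beside 17.3% higher of all genes. The libraries of the groups did not overlap in 61 members that were higher, beside 22.8% of all genes. The median log2 difference was 2.55 over the members and -0.13 over all genes tested. The called members were 4 of 5 H1, 12 of 16 H2A, 12 of 17 H2B, 10 of 10 H3, 10 of 12 H4 and 2 of 9 variant genes. Among them *Hist1h2ap* met the 1 FPKM threshold in TB IL-2 libraries only, so its call is no support. *Hist1h2al*, *Hist1h2ao* and *Hist1h2bq* also met it in no IL-2nil library, and what they add to the counts above is no support either. The class medians were close, at 2.23 for H1, 2.67 for H2A, 2.68 for H2B, 2.76 for H3 and 2.34 for H4, while that of the variants was 0.31. As labelled, 0 members were called (0.0563% of all genes called higher), with 0 at adjusted P alone, and the median was 2.17. Without both libraries 49 were called (4.94% of all genes) and the median was 2.76.

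H4, which pairs with H3 in the central tetramer, was the class with the highest summed level. *Hist1h4d* was at 3034, 7384 and 4778 TPM in TB IL-2 and at 562, 1292 and 1046 TPM in TB IL-2nil. *Hist1h4f* was at 4285, 5637 and 4155 TPM and at 261, 992 and 958 TPM. Neither gene's groups overlapped, and the log2 differences were 2.38 (SE 0.43, adjusted P = 0.0017) and 2.88 (SE 0.47, adjusted P = 0.001). *Hist1h4a* had the largest difference of the class, at 3.30 (SE 0.48, adjusted P = 0.00055).

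All 10 H3 genes were called higher with IL-2. *Hist1h3c* was at 1778, 3000 and 2241 TPM in TB IL-2 and at 123, 542 and 491 TPM in TB IL-2nil, a log2 difference of 2.83 (SE 0.61, adjusted P = 0.0043). *Hist1h3e*, the other leading H3 gene, was at 1151, 2197 and 2059 TPM and at 216, 590 and 690 TPM (1.96, SE 0.54, adjusted P = 0.014). Replicate 1 of TB IL-2nil was the lowest library for both genes, and for 61 of the 68 members above 0 in that group. *Hist1h3g* stood at 498, 915 and 442 TPM with IL-2 and at 26.1, 103 and 107 TPM without it (3.12, SE 0.56, adjusted P = 0.0017).

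H2A and H2B form the dimers that flank the tetramer. The leading H2A genes were *Hist1h2ak*, at 1121, 1733 and 1448 TPM in TB IL-2 and 83.0, 316 and 341 TPM in TB IL-2nil, and *Hist1h2ab*, at 811, 1485 and 1193 TPM and 46.7, 298 and 242 TPM. Their log2 differences were 2.76 (SE 0.55, adjusted P = 0.0028) and 2.90 (SE 0.76, adjusted P = 0.012). Among H2B genes, *Hist2h2bb* was at 2661, 4566 and 3303 TPM and at 308, 723 and 889 TPM (2.55, SE 0.54, adjusted P = 0.0039). *Hist1h2bb*, whose stem-loop and promoter are printed above, was at 1255, 3319 and 1908 TPM and at 66.7, 408 and 448 TPM (3.11, SE 0.79, adjusted P = 0.01). None of these 4 genes had overlapping groups. *Hist1h2ah* had the largest difference among called members above 0 in every library, 3.58 (SE 0.69, adjusted P = 0.0024). It was over 1 FPKM in 11 of the 12 libraries.

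Of the linker histone genes, *Hist1h1b* and *Hist1h1a* differed by 3.01 (adjusted P = 0.0063) and 2.95 (adjusted P = 0.018). *Hist1h1c*, the H1 gene with the highest mean level, was at 2252, 3907 and 2725 TPM in TB IL-2 and at 953, 2044 and 1873 TPM in TB IL-2nil. Its groups did not overlap, but the log2 difference of 0.90 (SE 0.53, 95% interval -0.26 to 2.07) did not pass the test (adjusted P = 0.2). With the replicate number as a block its adjusted P was 0.027. *Hist1h1d* was at 1830, 3309 and 2227 TPM and at 191, 745 and 904 TPM (2.23, SE 0.74, adjusted P = 0.032). As a share of all Hist members, H1 was 15.3% ± 1.02 in TB IL-2 and 22.7% ± 0.785 in TB IL-2nil (SD, n = 3). After PMA/I the shares overlapped, at 12.6%, 17.1% and 14% in TB+ IL-2 and 10.9%, 19.6% and 21.6% in TB+ IL-2nil. Within H1, *Hist1h1c* with *Hist1h1d* made up 51.8% with IL-2 and 69.7% without it in unstimulated cells.

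**Figure D2:**
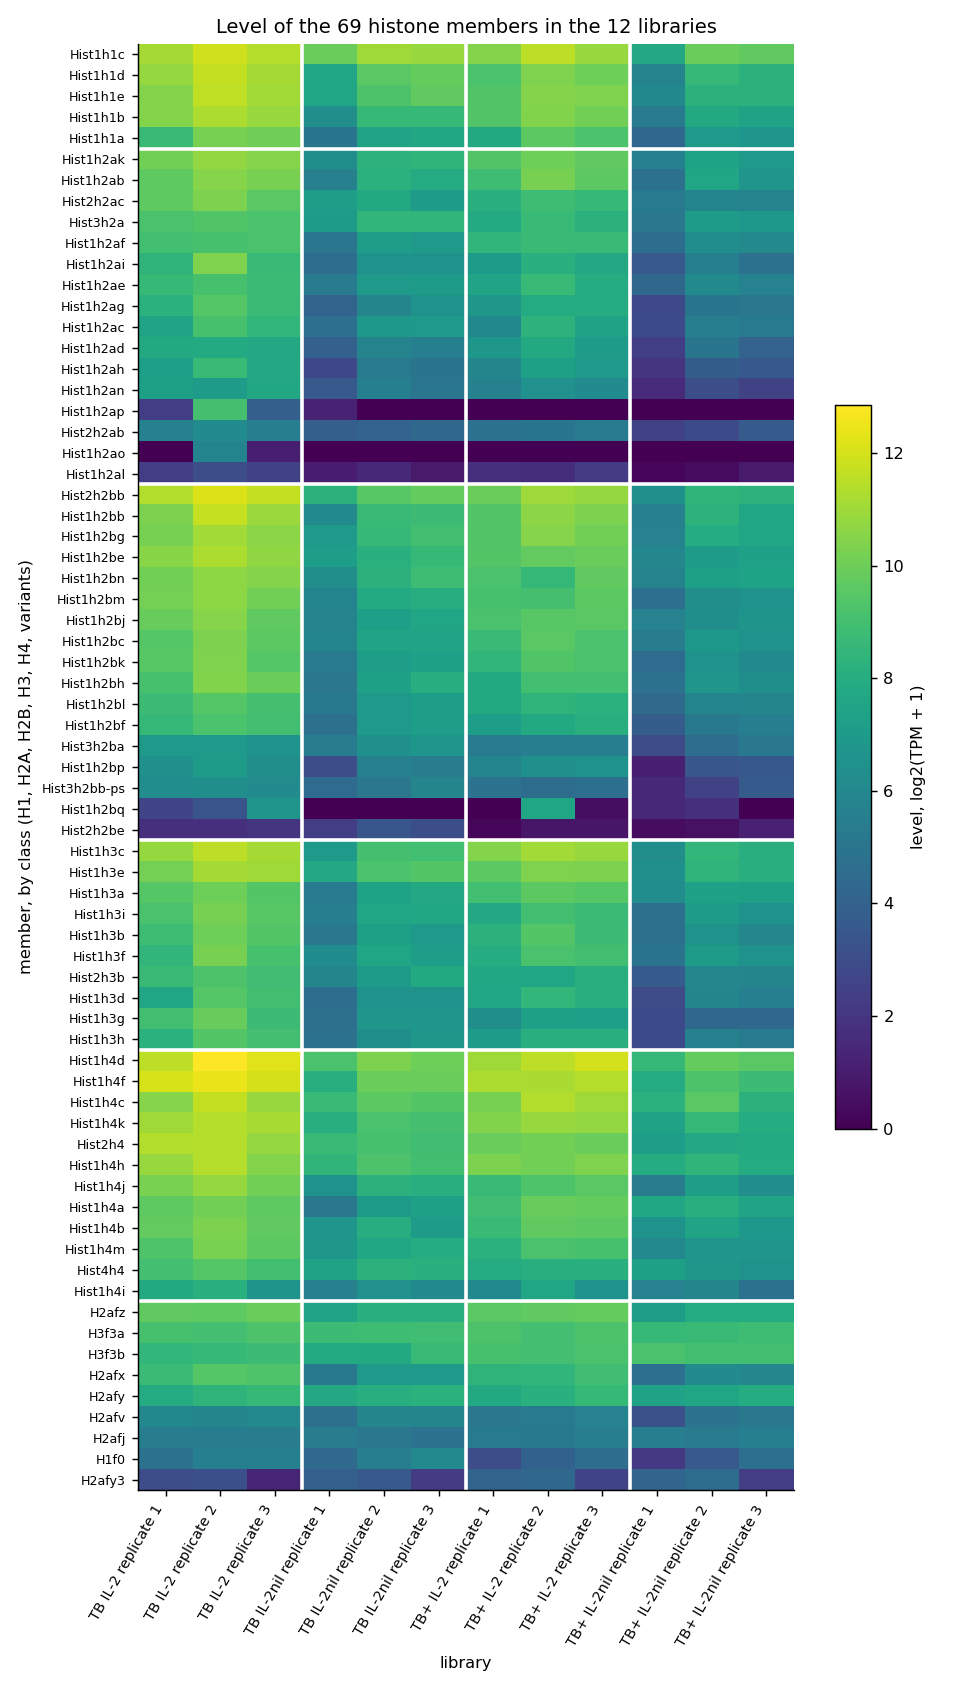
Level of all 69 members (rows, by class and then by mean level) in the 12 libraries (columns, by group), as colour on the scale log2(TPM + 1), with white lines between classes and groups. The columns of TB IL-2 and TB+ IL-2 are brighter than those of the IL-2nil groups in the H1 to H4 classes, while *H3f3a* and *H3f3b* are close to even across the row.

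Along with *Hist1h1c*, 8 other Hist members did not pass the test or went the other way in this comparison. *Hist2h2be*, an H2B gene without the stem-loop letters, was at 2.37, 2.46 and 2.88 TPM in TB IL-2 and 4.02, 9.70 and 7.61 TPM in TB IL-2nil. It was lower with IL-2 by -1.12 (SE 0.29, adjusted P = 0.011), by -1.04 without both libraries (adjusted P = 0.047) and by -0.34 as labelled (adjusted P = 0.9). *Hist2h2bb* (2.55) and *Hist1h2an* (2.61) also lacked these letters after the stop codon and were called higher with IL-2. *Hist3h2a*, *Hist3h2ba* and *Hist3h2bb-ps* on chromosome 11 had log2 differences of 1.23 (adjusted P = 0.067), 0.63 (adjusted P = 0.31) and 1.16 (adjusted P = 0.068), and the first and the last passed with the replicate block (adjusted P of 0.0094 and 0.037). *Hist3h2ba* was at 119, 125 and 96.0 TPM with IL-2 and at 42.6, 85.4 and 105 TPM without it, so its groups overlapped although it carries the stem-loop. *Hist1h2ac* (2.21, adjusted P = 0.058) and *Hist1h2bp* (1.91, adjusted P = 0.054) were near the threshold, and were below it with the replicate block (adjusted P of 0.00028 and 0.0076). *Hist1h2ao* (adjusted P = 0.11) and *Hist1h2bq* (adjusted P = 0.066) were listed at 0 in some libraries and far above it in others. *Hist1h2ap*, though called, met the 1 FPKM threshold in TB IL-2 libraries only, so its call is no support, and it was carried by 1 library: it was at 4.07, 534 and 13.9 TPM in TB IL-2, at 1.38, 0 and 0 TPM in TB IL-2nil and listed at 0 in all TB+ libraries.

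In all, 11 pairs of members were transcribed away from each other with starts 168 to 269 bases apart, and each joined an H2A to an H2B gene. In 6 pairs both genes were called higher with IL-2, beside 12 of 16 H2A and 12 of 17 H2B genes called in all. Pairs were not compared with unpaired genes, so neither this count nor the gaps below show that pairing matters. The log2 differences of the genes of a pair were 0.03 to 3.62 apart, with a median gap of 0.44. They were 2.45 and 2.48 for *Hist1h2ae* and *Hist1h2bg*, 3.58 and 3.14 for *Hist1h2ah* and *Hist1h2bk*, and 3.29 and 3.17 for *Hist1h2ag* and *Hist1h2bj*. The widest gap was between *Hist2h2ac* (mm9 chr3:96024284-96024803, minus strand) and *Hist2h2be* (chr3:96025044-96027661, plus strand), whose starts are 241 bases apart within the promoter printed above. *Hist2h2ac* was at 818, 1264 and 762 TPM in TB IL-2 and 144, 221 and 134 TPM in TB IL-2nil, a rise of 2.50 (SE 0.28, adjusted P = 0.00013), whereas *Hist2h2be* was lower by -1.12. *Hist2h2ac* was singled out after its values were seen.

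The variant genes did not move as one. *H2afz*, which encodes H2A.Z, was at 838, 817 and 954 TPM in TB IL-2 and 180, 281 and 273 TPM in TB IL-2nil, and rose with IL-2 by 1.85 (SE 0.23, adjusted P = 0.00022). *H2afx*, whose product H2A.X is phosphorylated at DNA breaks, was at 433, 705 and 624 TPM and 35.4, 120 and 125 TPM (2.81, SE 0.49, adjusted P = 0.0015). It is the variant gene with the stem-loop, and its difference lies near the median of the Hist members. *H3f3a* and *H3f3b* both encode H3.3, the replacement form of H3. *H3f3a* was at 551, 519 and 603 TPM and at 447, 468 and 487 TPM, a log2 difference of 0.25 (95% interval -0.05 to 0.55, adjusted P = 0.16). *H3f3b* was at 363, 391 and 451 TPM and at 233, 224 and 415 TPM (0.52, SE 0.22, adjusted P = 0.08). Its difference was 0.36 as labelled (adjusted P = 0.72), 0.80 without both libraries (adjusted P = 0.0082), and its adjusted P was 0.047 with the replicate block. The other 5 variants did not pass the test without the replicate block: *H2afy* for macroH2A1 (0.30, adjusted P = 0.36), *H2afv* for the other H2A.Z (0.48, adjusted P = 0.42), *H2afj* for H2A.J (0.31, adjusted P = 0.14), *H2afy3* (-0.76, adjusted P = 0.42, and 0.0048 with the block) and *H1f0*, a linker histone known from non-dividing cells (-0.02, adjusted P = 0.99). The gene models give *H2afy3* as a pseudogene without a coding sequence, overlapping *Pvt1* on the other strand.

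**Figure D3:**
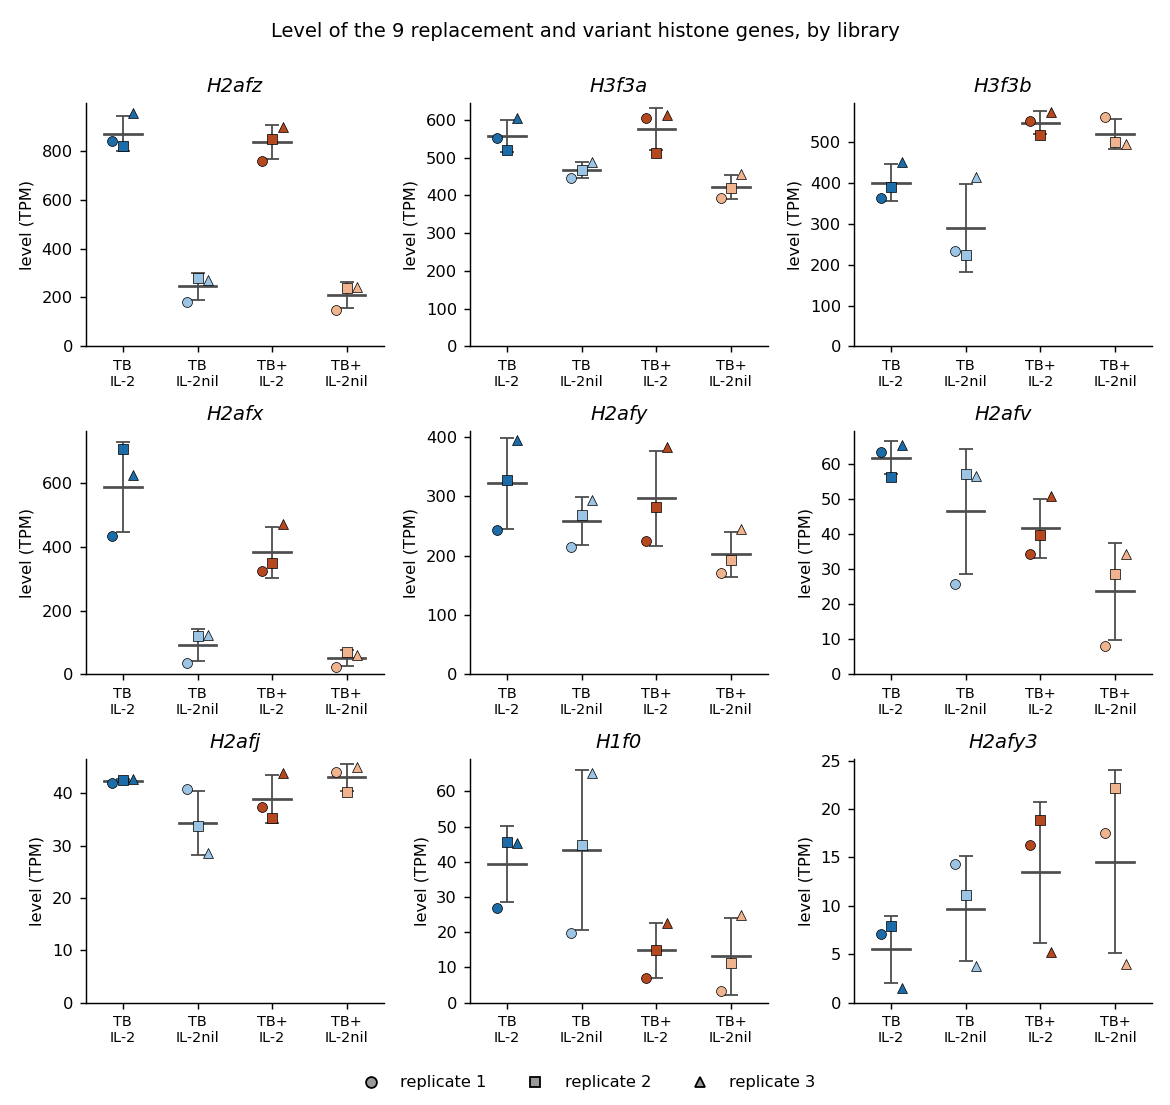
Level in TPM (linear axes from 0) of the 9 variant genes in each library, by group, with means and 1 SD (n = 3). *H2afz* and *H2afx* differ with IL-2 both without and with PMA/I, while *H2afy*, *H2afv*, *H1f0* and *H2afy3* have overlapping groups in TB IL-2 and TB IL-2nil.

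The makeup of the H3 and H2A RNA pools also differed between the groups. *H3f3a* and *H3f3b* together made up 12.4%, 6.76% and 10.6% of summed H3 RNA in TB IL-2 and 50.5%, 23.4% and 27.4% in TB IL-2nil. In TB+ IL-2 they were 22.1%, 12.9% and 16.0%, and in TB+ IL-2nil 72.8%, 39.9% and 46.2%. The share was lower with IL-2 in every library of both pairs of groups, and highest in replicate 1 of each group. The H2af genes made up 22.5%, 16.0% and 23.2% of summed H2A RNA in TB IL-2 and 46.3%, 29.2% and 30.7% in TB IL-2nil, and 34.0%, 23.1% and 31.7% in TB+ IL-2 and 64.5%, 40.2% and 49.3% in TB+ IL-2nil. These shares are ratios of the levels above and are not further evidence for them.

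**Figure D4:**
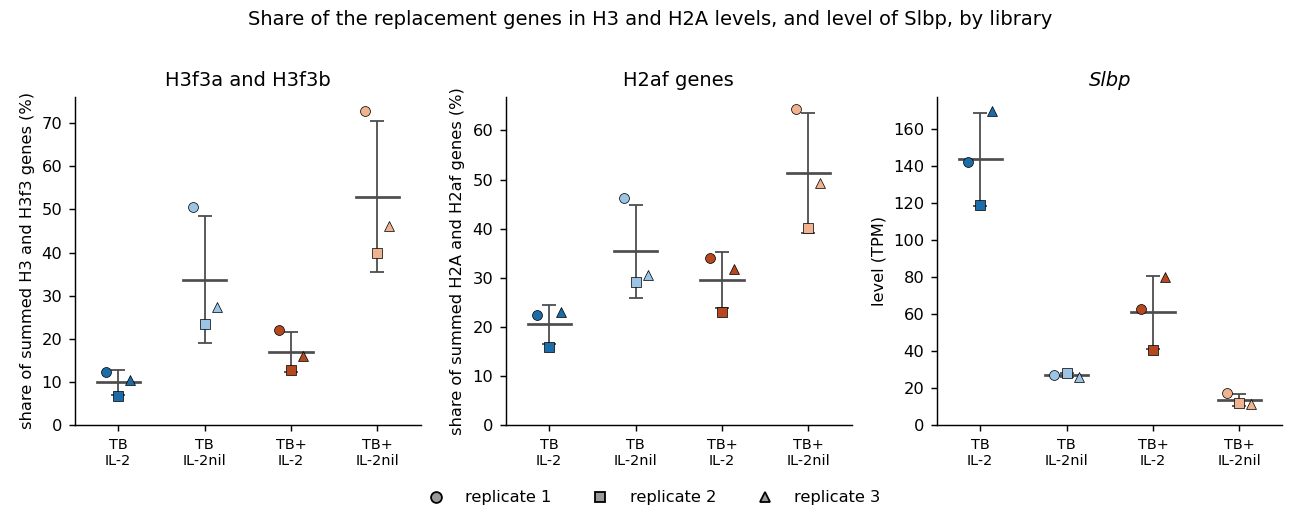
Percent of summed H3 levels from *H3f3a* and *H3f3b* (left) and of summed H2A levels from the H2af genes (middle), and level of *Slbp* in TPM (right), in each library by group, with means and 1 SD (n = 3). In both panels of shares every TB IL-2nil library lies above every TB IL-2 library, and every TB+ IL-2nil library above every TB+ IL-2 library, and the order is the opposite for *Slbp*.

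The next comparisons asked what 2 h of PMA/I did, and share libraries with the first, so their values are set side by side only. In cells with IL-2, the summed Hist level was 27700, 45995 and 42140 TPM in TB+ IL-2, against 51915, 90517 and 62025 TPM in TB IL-2. The groups did not overlap, and the log2 ratio was -0.81 (-1.22 as labelled, -0.89 without both libraries). All 60 Hist members had a lower mean on the log2(TPM + 1) scale after PMA/I, though for *Hist1h2bq* the mean in TPM was higher, and their median was -0.92, where that of all genes was -0.22. Only 2 members were called lower and 0 higher, beside 3.10% lower and 3.94% higher of all genes: *Hist1h3g* (-2.20, SE 0.56, adjusted P = 0.011) and *Hist1h2ap*, which passed the 1 FPKM threshold in TB IL-2 only, so that it had to be lower elsewhere. With adjusted P alone 9 of 69 were lower, a smaller share than the 23.3% of all genes. With the replicate number as a block 36 were lower, but the share of all genes under that fit is not given here, so this count has no background. The groups did not overlap in 40 members that were lower, beside 35.1% of all genes. *Hist1h2ao* and *Hist1h2ap* met the 1 FPKM threshold in TB IL-2 libraries only, so what they add to this count and to the 60 above is no support. As labelled 0 members were called lower (0.185% of all genes), and without both libraries 2 were (3.90% of all genes). *H2afz* (-0.06), *H3f3a* (0.05) and *H3f3b* (0.45) did not pass the test (adjusted P of 0.86, 0.82 and 0.13).

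In cells without IL-2, the summed Hist level was 3559, 10092 and 7912 TPM in TB+ IL-2nil, against 6623, 17585 and 17933 TPM in TB IL-2nil. The groups overlapped, and the log2 ratio was -0.96 (-1.37 as labelled, -0.71 without both libraries). In this comparison 10 members were called lower and 0 higher, beside 10.7% and 7.78% of all genes. Among the 10 were *Hist3h2bb-ps* (-2.62, adjusted P = 0.00056), *Hist1h2an* (-2.37, adjusted P = 0.0017), *Hist1h3g* (-2.25, adjusted P = 0.0049), *Hist2h2be* (-2.24, adjusted P = 7.2e-05) and the linker variant *H1f0* (-1.84, adjusted P = 0.025). *Hist2h2be* met the 1 FPKM threshold in 1 TB IL-2 and 3 TB IL-2nil libraries and in no TB+ library, so its call is no support. *H1f0* was at 19.9, 44.8 and 65.1 TPM before and 3.35, 11.2 and 25 TPM after PMA/I, so its groups overlapped, and without both libraries it did not pass the test (adjusted P = 0.092). With adjusted P alone 19 were lower, below the 41.1% of all genes. With the replicate block 50 were, again without a share of all genes under that fit to set beside it. In 11 members the groups did not overlap and were lower, beside 42.3% of all genes. As labelled 4 members were called lower (1.17% of all genes), and without both libraries 6 were (11.0% of all genes). A pair of members rose at adjusted P alone: *H3f3b* (0.89, SE 0.22, adjusted P = 0.0043) and *Hist1h4a* (1.22, SE 0.48, adjusted P = 0.047). Without both libraries these differences were 1.17 (adjusted P = 0.00046) and 1.64 (adjusted P = 0.02), and as labelled 0.74 (adjusted P = 0.15) and 0.40 (adjusted P = 0.78). *H3f3b* was at 562, 500 and 497 TPM in TB+ IL-2nil, all above the TB IL-2nil libraries. *Hist1h4a* was at 35.0, 129 and 165 TPM before and at 198, 266 and 182 TPM after PMA/I.

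The third question was whether IL-2 and histone RNA were related in the same way in stimulated cells. Of 69 members, 54 were called higher in TB+ IL-2 than in TB+ IL-2nil and 0 lower, beside 3.21% higher and 0.410% lower of all genes, and the median was 2.60, where that of all genes was -0.04. They were 5 of 5 H1, 13 of 16 H2A, 14 of 17 H2B, 10 of 10 H3, 10 of 12 H4 and 2 of 9 variant genes. With adjusted P alone 57 were higher (12.9% of all genes), and in 60 the groups did not overlap and were higher (18.9% of all genes). *Hist1h2al* and *Hist1h2bq* met the 1 FPKM threshold in IL-2 libraries only, so what they add to these counts is no support. As labelled 0 were called (0.104% of all genes) and without both libraries 38 were (2.47% of all genes). The geometric means of the summed Hist level differed 5.74-fold without overlap (the arithmetic means 5.37-fold), and the log2 ratio of 2.52 was 2.11 as labelled and 2.44 without both libraries. The largest differences were those of *Hist1h2an* (3.74, adjusted P = 0.00071), *Hist1h2ah* (3.62, adjusted P = 0.0046) and *Hist1h2bp* (3.54, adjusted P = 0.0063). *H2afz* and *H2afx* differed by 2.02 (adjusted P = 0.00032) and 2.96 (adjusted P = 0.0023), and *H3f3a* by 0.44 (adjusted P = 0.041). For *H3f3a* the difference did not pass the test as labelled (0.33, adjusted P = 0.43) or without both libraries (0.40, adjusted P = 0.16).

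**Figure D5:**
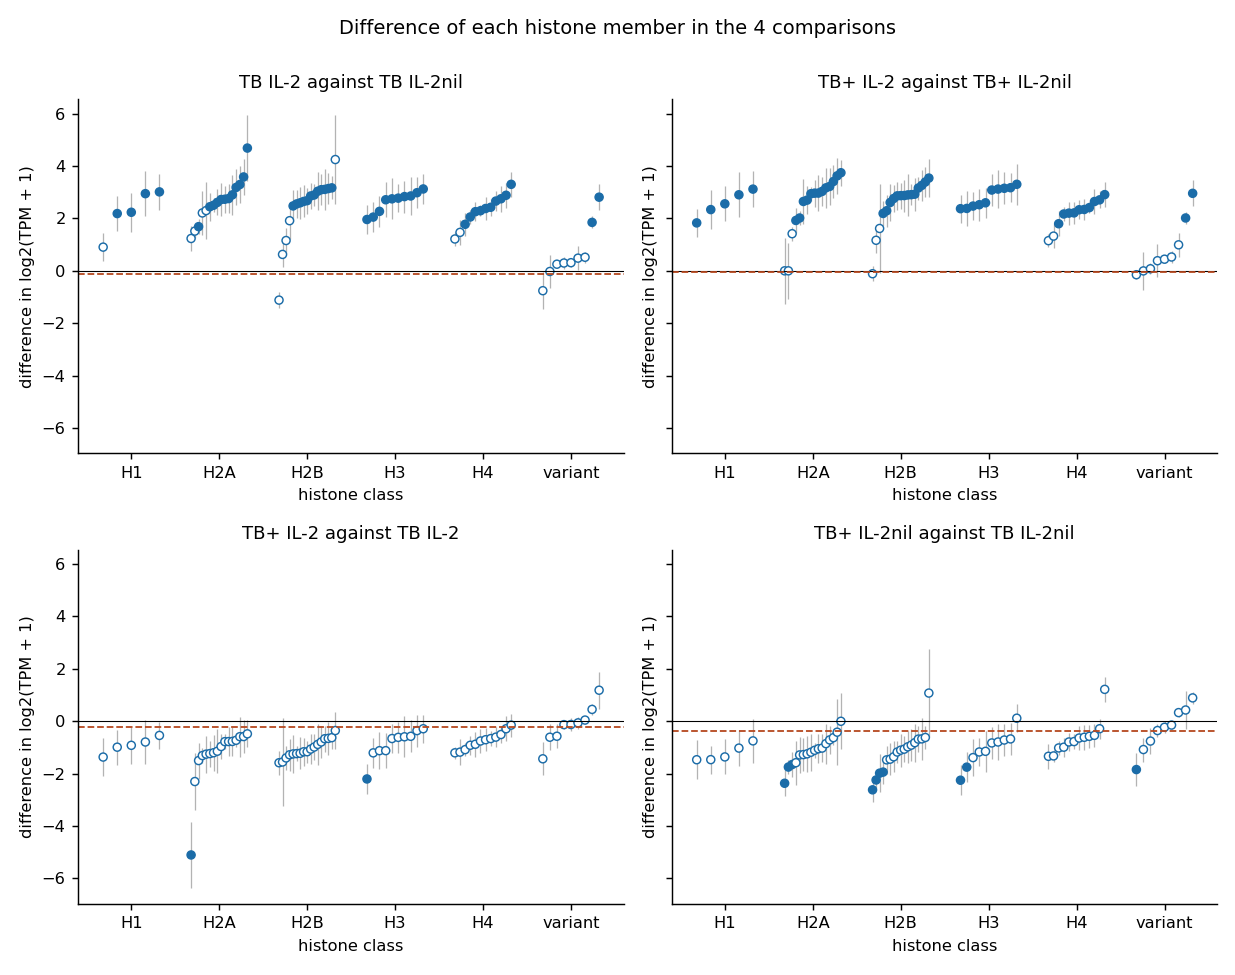
Difference in log2(TPM + 1) of every member in the 4 comparisons, by histone class, with 1 SE as a grey line. Filled points are called members, open points are not, and the dashed line is the median of all genes tested. The members of the 5 Hist classes lie mostly between 1 and 4 in both comparisons of IL-2 with IL-2nil and mostly below 0 in both comparisons of TB+ with TB, and the variants spread around 0, apart from *H2afz* and *H2afx* in the comparisons of IL-2.

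The difference between the PMA/I effects with and without IL-2 was tested as an interaction. It passed in 0 of 69 members, beside 4.23% of all genes, and 2 members had an unadjusted P below 0.05. The members' median of 0.16 equalled that of all genes. Among the 56 members over 1 FPKM in every library the values ran from -1.50 (*Hist1h4a*) to 0.92 (*Hist1h1c*). For the leading genes the intervals were wide, from -1.50 to 1.17 for *Hist1h4d* and from -1.58 to 2.21 for *Hist1h3c*. The order of the group means was TB IL-2, TB+ IL-2, TB IL-2nil and TB+ IL-2nil, from highest to lowest, in 56 of 69 members, including all H1 and H3 genes, 14 of 16 H2A, 13 of 17 H2B, 11 of 12 H4 and 3 of 9 variant genes. For the Hist sums, neighbours in this order did not overlap, except TB IL-2nil and TB+ IL-2nil.

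Genes that handle histone RNA and protein were followed from lists. Of 10 genes for histone mRNA 3′ end processing that were tested, *Slbp* was called higher in TB IL-2 than in TB IL-2nil. At adjusted P alone 5 of them were higher and 0 lower, beside 17.3% of all genes higher. *Slbp*, whose product binds the stem-loop, was at 142, 119 and 169 TPM in TB IL-2 and at 26.9, 28.2 and 26.2 TPM in TB IL-2nil (2.35, SE 0.25, adjusted P = 0.0001). After PMA/I it was at 62.7, 40.6 and 79.8 TPM with IL-2 and at 17.4, 12.1 and 11.5 TPM without it. It fell by 1.26 with PMA/I in cells with IL-2 (adjusted P = 0.0027) and by 0.96 in cells without it (adjusted P = 0.0056), so the groups stood in the same order as the Hist sums. Of 22 histone chaperones and assembly factors, 8 were called higher with IL-2 and 0 lower, beside 4.69% and 2.73% of all genes. They were *Asf1b* (3.55), *Mcm2* (3.16), *Chaf1a* (2.98) and *Chaf1b* (2.19) of CAF-1, *Nasp* (2.07), *Anp32e* (1.92), which removes H2A.Z, *Rbbp7* (1.89) and *Hat1* (1.85). At adjusted P alone 13 were higher and 3 lower, beside 17.3% of all genes higher and 2773 of 12442 lower. Of the 6 listed genes of the H3.3 deposition complexes, *Ubn2* (-1.10), *Cabin1* (-0.47) and *Daxx* (-0.67) were these 3, and *Ubn1* (-0.73), *Atrx* (-0.44) and *Hira* (0.28) did not pass (adjusted P of 0.053, 0.057 and 0.25). As labelled, neither *Slbp* nor any of the 8 called chaperones passed the test (adjusted P from 0.087 to 0.59), and without both libraries all 9 did (adjusted P from 0.00028 to 0.005). *Ubn2*, *Cabin1* and *Daxx* did not pass as labelled either (adjusted P of 0.70, 0.77 and 0.94). Without both libraries *Ubn2* and *Daxx* passed (adjusted P of 0.0024 and 0.023) and *Cabin1* did not (adjusted P = 0.059). *Cenpa*, the centromeric H3 variant, differed by 0.86 and did not pass the test (adjusted P = 0.33).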

How the data were processed

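The authors made 12 RNA-seq libraries with a directional kit. The submitters' processing notes name Trimmomatic 0.32, HISAT2 2.1.0, StringTie 1.3.3 and the mm9 build, and the deposited values are FPKM per gene name. The study's methods speak of TPM, but the deposited columns were tested and hold FPKM, which keep no read counts, so depth is known only as a ratio between libraries. FPKM were scaled to a sum of 1000000 per library and then to a common upper quartile (percentile 75), called TPM here. Genes reaching 1 TPM in a library (12442) were tested with limma 3.58.1 in R 4.3.3 on log2(TPM + 1), over all 12 libraries in 4 groups, with Benjamini-Hochberg adjustment. Called means over 3-fold with adjusted P below 0.05. Class sums have no test.

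Replicate numbers come from the labels. Libraries with the same number deviated together from their group means in 18 of 18 pairs (correlations from 0.101 to 0.531), so a fit with the number as a block was also made. The members and gene lists were chosen with earlier results of these data known. Named were all variant genes, the 2 highest Hist genes of each class, the 3 largest called differences in each direction of each comparison, and Hist genes that did not pass the test with IL-2 or had the opposite sign. Protein sequences were not used here.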

Additional observations from a re-analysis of the deposited data

Results flagged for a closer look

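In 4 genes of the histone chaperone and S phase lists the effect of PMA/I differed between cells with and without IL-2, as tested by the interaction term of the limma model with Benjamini-Hochberg adjustment. The interaction was -1.24 on the log2 scale for *Hat1*, a histone acetyltransferase (adjusted P = 0.023), and -1.84 for its partner *Rbbp7* (adjusted P = 0.031). It was -2.27 for *Ipo4*, an importin (adjusted P = 0.031), and -1.25 for *Pcna*, the sliding clamp of DNA replication (adjusted P = 0.033). A negative value means that the change after PMA/I was lower in cells with IL-2. These results rest on the placement of the disputed libraries: 526 genes (4.23% of all tested) passed as placed, 0 as labelled and 4 without both libraries. Of the 4 genes above 0 passed as labelled (adjusted P = 0.91 for each), and without both libraries their values were -1.18, -1.67, -2.0 and -1.30 in the same order (adjusted P from 0.089 to 0.12). No histone gene passed this test, and groups of 3 libraries are too small for the search for single libraries far from the rest of their group.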

How the results depend on the processing

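The number of members called higher in TB IL-2 against TB IL-2nil was 0 with the libraries as labelled and 41 to 53 with each replicate left out in turn, and in TB+ IL-2 against TB+ IL-2nil it was 0 as labelled and 40 to 54. Called lower in TB+ IL-2 against TB IL-2 were 0 as labelled, 4 with quantile normalization, 4 with a pseudocount of 0.1 and 2 to 3 with a replicate left out. The least stable count was that called lower in TB+ IL-2nil against TB IL-2nil: 4 as labelled, 6 without both libraries of disputed placement, 30 with no upper-quartile scaling, 4 with median-of-ratios scaling, 16 with quantile normalization, 5 with no filter, and from 4 (without TB+ IL-2nil replicate 1) to 31 (without TB IL-2nil replicate 1). Called higher there were 1 without both libraries, 1 with median-of-ratios scaling and 0 to 1 with a replicate left out, and the interaction had 0 to 1. The paired fit with the replicate number as a block called 52, 2, 10 and 54 members in the 4 comparisons (higher, lower, lower and higher). Beside them, 609, 393, 1331 and 427 of all 12442 genes were called in the same directions. In the interaction it called 0 members, where 760 genes were higher and 718 lower. At adjusted P alone it had 59 members higher and 2 lower in TB IL-2 against TB IL-2nil. It had 61 higher in TB+ IL-2 against TB+ IL-2nil, and the counts given in the report for PMA/I. The shares of all genes at adjusted P alone under the paired fit are not given here. The cause of these shifts was not tested. The median of all genes in TB+ IL-2nil against TB IL-2nil was -0.38, and -0.78, -0.08 and -0.14 with no upper-quartile scaling, median-of-ratios scaling and quantile normalization. *H1f0* changed sign in TB IL-2 against TB IL-2nil: 0.47 as labelled, 0.34 without both libraries, 0.064 with median-of-ratios scaling, 0.017 with no filter, and from -0.49 (without TB IL-2nil replicate 1) to 0.34 (without TB IL-2nil replicate 3) with a replicate left out. *H3f3a* was at -0.17 with quantile normalization.

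Log2 ratios of summed levels moved by more than the replicate spread for H3 in TB+ IL-2 against TB IL-2 (-1.13 as labelled) and for the Hist sum there (-1.22 as labelled). For H4 they were 1.83, -1.24 and 1.77 as labelled in TB IL-2 against TB IL-2nil, TB+ IL-2 against TB IL-2 and TB+ IL-2 against TB+ IL-2nil, 2.70 in the last with no upper-quartile scaling, and -1.21 with no upper-quartile scaling and -1.27 with quantile normalization in TB+ IL-2nil against TB IL-2nil. For the variants they were 0.64 (quantile) and 0.70 (as labelled) in the first, 0.18 (median-of-ratios), -0.32 (quantile) and -0.34 (as labelled) in TB+ IL-2 against TB IL-2, -0.53 (no upper-quartile scaling), 0.43 (median-of-ratios), -0.54 (quantile) and -0.24 (as labelled) in TB+ IL-2nil against TB IL-2nil, and 1.27 (no upper-quartile scaling) and 0.60 (as labelled) in TB+ IL-2 against TB+ IL-2nil. Of 364 class sums recomputed, 345 stayed within 1 SD. Of 1116 recomputed single differences, 981 kept their direction and side of the threshold, 116 no longer passed it, 11 newly passed it and 8 changed sign, 0 of them among called genes. With 3 libraries per group and no read counts, the error of low genes such as *Hist2h2be* cannot be set against counting error.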

Other observations

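Within groups, replicate 1 had the lowest level of most members. It was the lowest library in 46 of 69 members in TB IL-2, 61 of 68 members above 0 in TB IL-2nil, 56 of 67 in TB+ IL-2 and 59 of 67 in TB+ IL-2nil. The summed level of the CD8 T cell markers *Cd8a* and *Cd8b1* was 31.9, 6.91 and 7.18 TPM in TB IL-2 replicates 1 to 3, 22.1, 14 and 17.7 TPM in TB IL-2nil, 29.5, 7.27 and 9.14 TPM in TB+ IL-2 and 22.0, 8.64 and 15.5 TPM in TB+ IL-2nil, and so was highest in replicate 1 of every group. The summed S phase genes were at 2117, 1628 and 2509 TPM in TB IL-2 and at 1605, 1235 and 1975 TPM in TB+ IL-2, where replicate 2 was lowest. They were at 348, 377 and 408 TPM in TB IL-2nil, where replicate 1 was lowest, and at 481, 429 and 430 TPM in TB+ IL-2nil, where it was highest. Short non-coding RNAs made up 16.6% to 43.8% of all summed values in TB IL-2, 21.3% to 37.5% in TB IL-2nil, 22.2% to 27.5% in TB+ IL-2 and 33.0% to 53.2% in TB+ IL-2nil. When the short non-coding RNAs were left out before scaling, 28 class sums stayed within 1 SD. Of the single differences, 61 kept their direction and side of the threshold and 1 newly passed it. The part of the CD8 T cell markers and of the S phase genes in the histone levels was not tested.

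The ratio of the summed Hist level of TB IL-2 to that of TB IL-2nil was 7.84, 5.15 and 3.46 when libraries of the same replicate number were compared, and that of TB+ IL-2 to TB+ IL-2nil was 7.78, 4.56 and 5.33. The ratio of TB+ IL-2 to TB IL-2 was 0.534, 0.508 and 0.679, and that of TB+ IL-2nil to TB IL-2nil 0.538, 0.574 and 0.441, so every same-numbered comparison had the direction of the group means.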
